A study of Mus musculus with 4 samples.

Results

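The adrenergic receptor genes are the mouse genes for the receptors of noradrenaline and adrenaline, and 6 of them are described here in the dorsal hippocampus: Adra1a, Adra1b, Adra1d, Adra2a, Adra2c and Adrb1. Their probes were found by matching the transcript accession given for each non-control spot to RefSeq symbols, which gave 8 probes for the 6 genes, out of 22911 genes named on the array. Matching by accession matters for this family, because the table still lists Adra1a as an older synonym of Adra1d.

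RNA came from female mice given 20-fold iodine intake (2 arrays, replicates 2 and 3) or from control mice (2 arrays, replicates 2 and 3), and the dorsal hippocampus was taken once behavioural testing was over. Each sample was hybridised to its own 1-colour Agilent array. The strain, the age and the form in which iodine was given are not given in the sources used here, nor is it stated that the replicates are separate animals. The p-values therefore cover variation among these 4 samples alone, and that variation may be technical.

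Noradrenaline reaches the hippocampus through axons of the locus coeruleus, a brainstem nucleus, and acts through G protein-coupled receptors in 3 classes. The alpha-1 receptors (Adra1a, Adra1b, Adra1d) act through Gq and phospholipase C, the alpha-2 receptors (Adra2a, Adra2c) through Gi/o, which lowers cyclic AMP and restrains transmitter release, and the beta receptors (Adrb1) through Gs, which raises cyclic AMP. In the hippocampus this system is known for its influence on arousal, synaptic plasticity and memory.

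The arrays were alike in brightness, with 37533 to 37751 of 56605 probes well above background in the 20-fold iodine group and 37893 to 37921 in the control group. The processed signal had a 75th percentile of 149.7 and 144.3 in iodine replicates 2 and 3, against 158.8 and 154.2 in control replicates 2 and 3. Levels below are log2 processed signals minus this percentile of the same array, so 0 marks the percentile itself. Differences are 20-fold iodine minus control, from limma fitted over all 38228 probes well above background on at least 2 arrays, with Benjamini-Hochberg adjustment over all of them. All 4 arrays were read in 1 scan, with the iodine samples in slide columns 3 and 4 and the controls in columns 1 and 2, so slide position and group cannot be told apart. The markers fixed for hippocampal pyramidal and granule neurons were measured in 8 of 8 genes, interneuron markers in 6 of 6 and astrocyte markers in 5 of 5, and 0 of them passed an adjusted p of 0.05. Oligodendrocyte lineage, microglia and striatum markers had median differences of -0.01, 0.04 and 0.15, and noradrenergic cell body markers, measured in 3 of 6 genes, 0.02. Of all 38228 probes, 0 passed an adjusted p of 0.05 (0%), while 3451 had an unadjusted p under 0.05 (9.03%).

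Of the 8 receptor probes, 7 were well above background on all 4 arrays, and each of the 6 genes had at least 1 such probe. None of the 7 passed the adjusted threshold (limma adjusted p from 0.522 to 0.982), and 2 had an unadjusted p under 0.05, both of them probes of Adra1d. The iodine and control arrays did not overlap for 3 of the 7 probes, all higher in iodine. Of all probes 41.6% were without overlap, 23.2% higher and 18.4% lower in iodine. The median difference of the 6 genes was 0.08, with 4 genes higher and 2 lower. The median was -0.01 over all 16793 genes, each by its brightest kept probe, and 0.01 over all 38228 probes. An exact permutation test of 2 arrays against 2 cannot give a two-sided p under 0.333, so none was run for single genes.

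**Figure D1:**
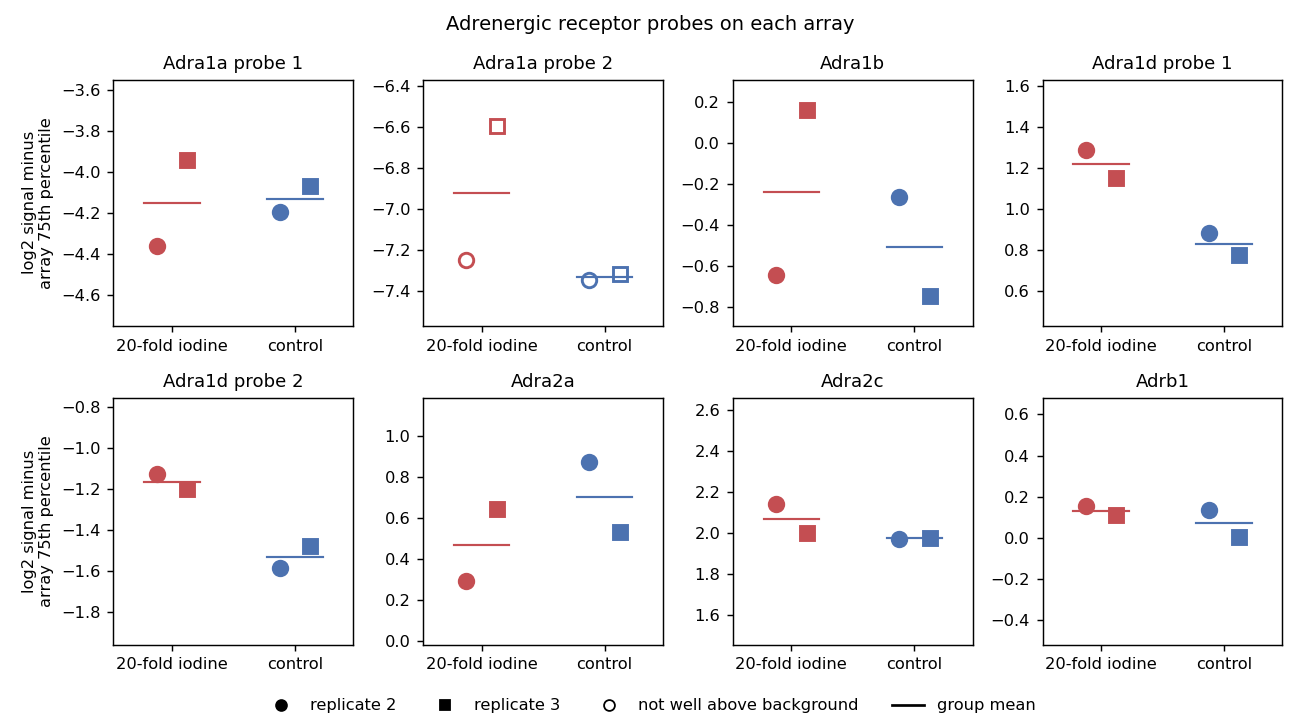
Log2 processed signal minus the array's 75th percentile (vertical axis, each panel 1.2 log2 units high) for the 8 receptor probes, with the 20-fold iodine arrays left of the control arrays, circles for replicate 2, squares for replicate 3 and a line at each group mean. Probes of a gene are numbered by brightness. Both Adra1d probes lie higher on both iodine arrays than on both control arrays, Adra1b and Adra2a spread widely within each group, and the second Adra1a probe, drawn open, was not well above background on any array.

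Adra1d encodes the alpha-1D receptor, which is abundant in hippocampal neurons and is the alpha-1 subtype of several large arteries. Its brighter probe (A_55_P2019954) had processed signals of 365.1 and 320.6 in iodine replicates 2 and 3, against 292.9 and 263.7 in control replicates 2 and 3. On the scaled log2 axis these were 1.29 and 1.15 in iodine, against 0.88 and 0.77 in control. Both iodine arrays lay above both control arrays, by more than the gap between the 2 arrays of either group, which was 0.14 in iodine and 0.11 in control.

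The means for this probe were 1.22 ± 0.10 in iodine and 0.83 ± 0.08 in control (SD, n = 2 each). The log2 difference was 0.39 ± 0.10 (SE), a fold of 1.31 with a 95% confidence interval of 1.09 to 1.57, and limma's adjusted p was 0.522. By unadjusted p (0.014 in the same limma fit) it ranked 1036 of 38228 probes, so 2.71% of all probes stood at least as far out. It therefore did not pass over the whole array.

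A second Adra1d probe (A_55_P1961809), annotated to the same transcript, gave the same picture at a lower brightness. Its log2 levels were -1.13 and -1.20 in iodine replicates 2 and 3, against -1.59 and -1.48 in control replicates 2 and 3. The groups again did not overlap, and the difference was 0.37 ± 0.09 (SE, limma adjusted p = 0.522), or 1.29-fold. The 2 probes read the same RNA samples and are not independent of each other. Among the 6092 genes with at least 2 kept probes, the brightest 2 probes were both without overlap and higher in iodine in 6.96%.

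The separation of Adra1d did not depend on how the arrays were scaled. Both probes were without overlap and higher in iodine in 6 of 6 scalings, including the deposited signals with no scaling at all, while the share of all probes without overlap and higher moved between 10.8 and 33.0% over these scalings. With 1 array left out in turn, the difference of the brighter probe stayed between 0.32 and 0.46 and that of the second probe between 0.31 and 0.42. Within an array, where scaling cancels, the log2 ratio of Adra1d to Adrb1 was 1.133 and 1.042 in iodine, against 0.75 and 0.77 in control. The ratio to Adra2c was -0.85 and -0.85 in iodine, against -1.09 and -1.20 in control. Adra1d thus separated the groups relative to both of these receptors, as it did relative to Adra2a and Adra1a, but not relative to Adra1b. The separation was narrow for Adra1a, which lay close to background, at 5.648 and 5.093 in iodine, against 5.077 and 4.843 in control. All these ratios share the Adra1d values and are not independent of each other.

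**Figure D2:**
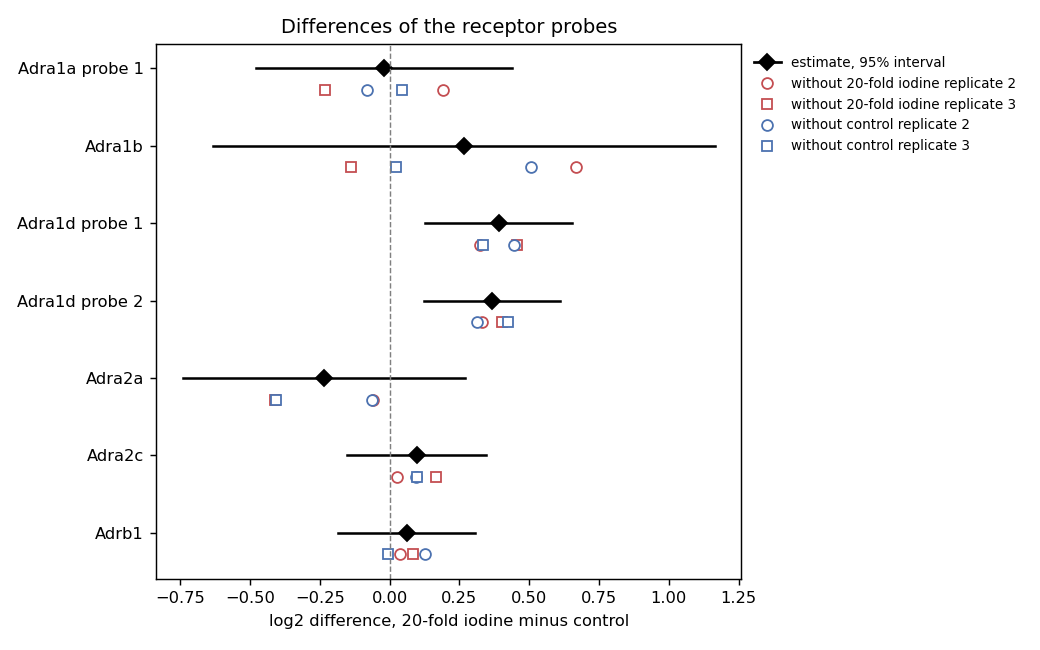
Log2 difference, 20-fold iodine minus control (horizontal axis), for the 7 receptor probes well above background, as the limma estimate with its 95% interval (diamond and bar) and, below it, the estimate with 1 array left out (open symbols). The Adra1d probes keep all 4 of these estimates between 0.31 and 0.46, while Adra1a, Adra1b and Adrb1 have estimates on both sides of 0.

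Pituitary hormone genes, hippocampal neuron markers and smooth muscle and pericyte genes are given beside the Adra1d values. No rule fixed beforehand which marker lists are set beside which receptor. The 4 pituitary genes (Gh, Prl, Cga, Pomc) were all higher on both iodine arrays, with a summed signal of 14.8 and 10.8 times the array's 75th percentile in iodine, against 3.40 and 7.05 in control. The 8 markers of pyramidal and granule neurons had median deviations from their 4-array means of 0.20 and -0.06 in iodine replicates 2 and 3, against -0.12 and 0.02 in control replicates 2 and 3. Of these 8, Slc17a7, the vesicular glutamate transporter of hippocampal pyramidal and granule neurons (0.40 ± 0.08, SE, limma adjusted p = 0.668), and Fibcd1 (0.17 ± 0.11, SE) were higher in iodine without overlap, and 0 were lower without overlap. By the sign of the difference, 4 of the 8 were higher in iodine and 4 lower, with Wfs1 the lowest at -0.11. For Adra1d the deviations were 0.26 and 0.13 in iodine, against -0.14 and -0.25 in control. The 5 smooth muscle and pericyte genes had median deviations of 0.034 and 0.186 in iodine, against -0.096 and 0.022 in control, narrowly without overlap. Of these 5, Acta2, Rgs5 and Pdgfrb were higher in iodine without overlap and 0 were lower without overlap. The other genes of the list, Tagln (-0.13) and Myh11 (-0.16), were lower in iodine with overlap, and a further Myh11 probe stood at 0.06. Pdgfrb, a pericyte receptor, stood at 0.30 ± 0.10 (SE, limma adjusted p = 0.670). Acta2 stood at 0.07, with another probe at -0.19. The summed signal of the 5 genes was 14.7 and 16.8 in iodine, against 14.4 and 15.9 in control, and overlapped. Beside these counts, which hold for the 75th percentile scale, 39.9% of all genes were without overlap in either direction. The part of any of these marker lists in the Adra1d difference was not tested, and in such bulk samples fewer cells of a type and less RNA per cell cannot be told apart.

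Adra1b encodes the alpha-1B receptor, whose messenger RNA is prominent in the rodent thalamus. Its probe (A_52_P639048) had processed signals of 96.0 and 161.6 in iodine replicates 2 and 3, against 132.3 and 91.9 in control replicates 2 and 3. The scaled log2 levels were -0.64 and 0.16 in iodine, against -0.26 and -0.75 in control. The gap between arrays of a group, 0.80 in iodine and 0.48 in control, was the widest among the 7 receptor probes above background, and the groups overlapped.

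The means of Adra1b were -0.24 ± 0.57 in iodine and -0.50 ± 0.34 in control (SD, n = 2 each). The difference was 0.27 ± 0.33 (SE, limma adjusted p = 0.845), with a 95% confidence interval from 0.64-fold to 2.24-fold. It was 0.67 without iodine replicate 2, 0.51 without control replicate 2, 0.02 without control replicate 3 and -0.14 without iodine replicate 3. No direction can be given for Adra1b from these arrays.

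Thalamus and habenula markers, of which 11 of 12 were measured (Gpr151 was the exception), are given beside Adra1b. Their median deviations were -0.24 and 0.45 in iodine replicates 2 and 3, against -0.13 and -0.17 in control replicates 2 and 3. Adra1b deviated by -0.27 and 0.53 in iodine, against 0.11 and -0.37 in control. Zic1, a transcription factor of the medial habenula and other dorsal regions, had log2 levels of 1.66 and 2.64 in iodine, against 2.37 and 1.70 in control. Slc17a6, the vesicular glutamate transporter of thalamic neurons, had -0.65 and 0.10 in iodine, against 0.28 and -0.74 in control. Zic1 and Slc17a6, which were chosen after their values were seen, share the array order of Adra1b, in which iodine replicate 3 and control replicate 2 are the brighter of their group. Of the 11 measured markers 4 had this order, 9 were brighter in iodine replicate 3 than in iodine replicate 2, and 6 were brighter in control replicate 2 than in control replicate 3. The order was also held by 4 of 6 choroid plexus, 3 of 6 interneuron and 2 of 6 striatum markers. It was held by 1 of 8 hippocampal neuron, 1 of 5 oligodendrocyte lineage, 0 of 5 astrocyte and 0 of 4 microglia markers. The thalamus and habenula list had a summed signal of 33.9 and 37.4 in iodine, against 37.8 and 28.9 in control, so the groups overlapped. Choroid plexus markers had a summed signal of 4.65 and 19.1 in iodine, against 12.68 and 12.01 in control. Whether any of these lists has a part in the spread of Adra1b was not tested.

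**Figure D3:**
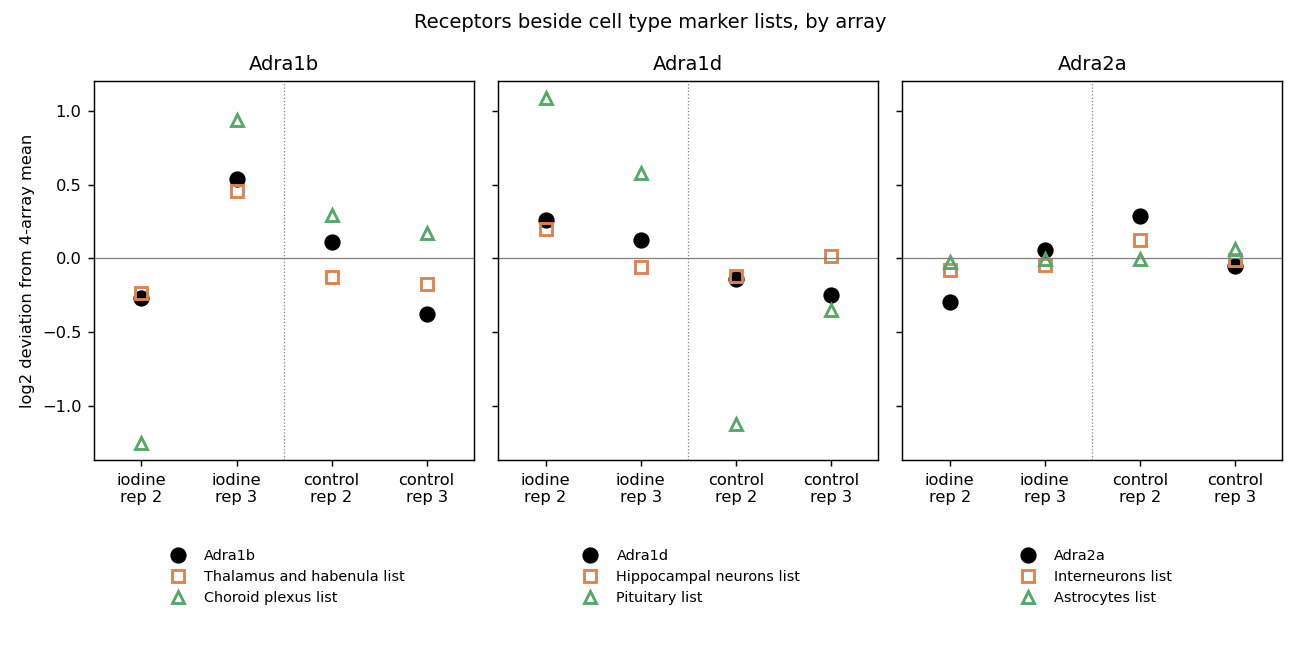
Deviation from the 4-array mean in log2 units (vertical axis) on each array, iodine arrays left of control arrays, for Adra1b, Adra1d and Adra2a (filled circles) and for the median of cell type marker lists (open symbols). Adra1b is highest on iodine replicate 3, as are the thalamus and habenula and the choroid plexus lists, and Adra1d and the pituitary list are higher on both iodine arrays.

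Adra1a encodes the alpha-1A receptor, and its signal lay close to background. The probe for its reference transcript (A_51_P447229, NM_013461) had processed signals of 7.28 and 9.39 in iodine replicates 2 and 3, against 8.67 and 9.19 in control replicates 2 and 3. For comparison, the lowest signal called well above background was 4.63 and 4.49 on the iodine arrays and 4.472 and 4.601 on the control arrays. The scaled log2 levels were -4.36 and -3.94 in iodine, against -4.19 and -4.07 in control, and the control values lay between the iodine values.

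The Adra1a difference was -0.02 ± 0.17 (SE, limma adjusted p = 0.982), with a 95% confidence interval from 0.72-fold to 1.36-fold. A second probe (A_55_P2934292), for the alternative transcript NM_001271761, had processed signals of 0.99 and 1.49 in iodine, against 0.98 and 0.97 in control. It was not well above background on any of the 4 arrays, so it has only an upper bound in both groups and no fold is given.

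Adra2a encodes the alpha-2A receptor, the main autoreceptor on noradrenaline terminals and also a postsynaptic receptor. Its probe (A_55_P2021505) had processed signals of 183.2 and 225.6 in iodine replicates 2 and 3, against 291.2 and 222.8 in control replicates 2 and 3. The scaled log2 levels were 0.29 and 0.64 in iodine, against 0.87 and 0.53 in control. Iodine replicate 2 was the lowest array and control replicate 2 the highest, while both replicates numbered 3 lay between them, so the groups overlapped.

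The means of Adra2a were 0.47 ± 0.25 in iodine and 0.70 ± 0.24 in control (SD, n = 2 each). The difference was -0.24 ± 0.19 (SE, limma adjusted p = 0.747), with a 95% confidence interval from 0.60-fold to 1.21-fold. It was below 0 in all 15 alternative settings, between -0.41 and -0.06, and it was -0.06 without iodine replicate 2 and also -0.06 without control replicate 2. Interneuron markers had median deviations of -0.08 and -0.04 in iodine, against 0.12 and -0.01 in control, and 3 of 6 (Gad1, Pvalb, Sst) were lower in iodine without overlap. Astrocyte markers had medians of -0.02 and -0.01 in iodine, against -0.01 and 0.06 in control, but these medians join genes of opposite direction. All 5 were without overlap, Sox9 (0.37) and Gfap (0.29) higher in iodine and Aldh1l1 (-0.17), Slc1a3 (-0.15) and Gja1 (-0.09) lower, and another Gja1 probe stood at 0.42. Of all genes, 39.9% were without overlap in either direction. The smallest limma adjusted p among the interneuron and astrocyte markers was 0.668, and the counts hold for the 75th percentile scale. Their part in the Adra2a values was not tested.

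Adra2c encodes the alpha-2C receptor, another inhibitory receptor of noradrenaline terminals and of their target neurons. Its probe (A_55_P1984487) had processed signals of 659.7 and 576.6 in iodine replicates 2 and 3, against 623.0 and 605.3 in control replicates 2 and 3. The scaled log2 levels were 2.14 and 2.00 in iodine, against 1.97 and 1.97 in control. After scaling, both iodine arrays lay above both control arrays, but before scaling the control signals lay between the iodine signals. The groups were without overlap in 3 of 6 scalings. The difference was 0.10 ± 0.09 (SE, limma adjusted p = 0.788), with a 95% confidence interval from 0.90-fold to 1.27-fold.

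Adrb1 encodes the beta-1 receptor, which raises cyclic AMP in hippocampal neurons. Its probe (A_52_P322181) had processed signals of 166.4 and 155.7 in iodine replicates 2 and 3, against 174.5 and 154.7 in control replicates 2 and 3. The scaled log2 levels were 0.15 and 0.11 in iodine, against 0.14 and 0.00 in control, and they overlapped. The difference was 0.06 ± 0.09 (SE, limma adjusted p = 0.874), with a 95% confidence interval from 0.88-fold to 1.24-fold. Of the 7 receptor probes above background, Adrb1 had the smallest range over the 4 arrays, 0.15 log2 units.

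The 95% intervals are those of single probes, not adjusted over all probes, so they do not set what could pass the adjusted threshold. For Adrb1, Adra2c and Adra2a, increases above 1.24-fold, 1.27-fold and 1.21-fold lay outside the interval. Levels below 0.88-fold, 0.90-fold and 0.60-fold of control lay outside it as well. For Adra1b the interval reached from 0.64-fold to 2.24-fold. A difference that missed the threshold does not show that a receptor was unchanged.

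Other receptors of the family are given for comparison. Adra2b, the alpha-2B receptor, had log2 levels of -0.89 and -0.88 in iodine, against -0.900 and -0.997 in control, with a difference of 0.06 ± 0.08 (SE, limma adjusted p = 0.852). The brighter probe of Adrb3, the beta-3 receptor best known from fat tissue, had -2.94 and -2.82 in iodine, against -2.521 and -3.003 in control, with a difference of -0.12 ± 0.19 (SE, limma adjusted p = 0.882). Its other probe was well above background on 1 of 4 arrays, too few for a test.

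Genes closest to each receptor in profile were found by the root mean square distance between their 4 values, centred on their mean, among genes that varied at least as much. For Adra1d they were Rn7s1 and Slamf9 (distances of 0.010 and 0.018 log2 units), and Rn7s1, the RNA of the signal recognition particle, had levels of 4.26 and 4.15 in iodine, against 3.87 and 3.75 in control. For Adra1b they were Mei1 and Mesp2 (0.043 and 0.074), for Adra2a Usp6nl and Ocm (0.034 and 0.039), and for Adra1a Olfr1131 and Tec (0.010 and 0.020). For Adra2c they were Cyld and Mylip (0.0015 and 0.0025) and for Adrb1 Cdip1 and Fam110a (0.0068 and 0.0084). With 4 arrays and many candidate genes, such likeness describes these arrays only.

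Genes that make, carry and transmit the noradrenaline signal were counted from lists of 94 genes, of which 91 were tested, each by its brightest probe among 16793 genes. By limma 0 of the 91 passed the adjusted threshold (smallest adjusted p = 0.668), as did 0 of all 16793 genes (0%). At an unadjusted p under 0.05 there were 2 higher and 1 lower, 3.30% of the 91, where 7.38% of all genes had one. The groups did not overlap in 36 of the 91 (39.6%), where 39.9% of all genes did not. The median difference was 0.02, beside -0.01 over all genes.

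Noradrenaline synthesis, storage, uptake and breakdown genes had a median difference of 0.03 over 10 of 12 genes, 6 higher and 4 lower, with 0 past the threshold. Tyrosine hydroxylase (Th), the first enzyme of synthesis, had log2 levels of -0.51 and -0.46 in iodine, against -0.50 and -0.42 in control. Dbh, which converts dopamine to noradrenaline, had -2.41 and -2.98 in iodine, against -3.31 and -2.52 in control, and overlapped. The difference of this Dbh probe was 0.22, and another Dbh probe stood at -0.81. The transporter genes Slc6a2 and Slc6a3 exceeded background on too few arrays for a test, as did Phox2a, a transcription factor that specifies noradrenergic neurons. The smallest unadjusted p belonged to Maob, a monoamine-degrading enzyme, at -0.15 ± 0.07 (SE, limma adjusted p = 0.725), with another probe at 0.05. Next came Slc22a3, a low-affinity monoamine transporter, at 0.23 ± 0.14 (adjusted p = 0.758).

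The Gq branch, which alpha-1 receptors use, had a median of 0.02 over 16 genes, 10 higher and 6 lower. Plcb2, a phospholipase C, had the smallest p, at -0.40 ± 0.12 (SE, limma adjusted p = 0.668). Its log2 levels were -4.28 and -4.25 in iodine, against -3.71 and -4.01 in control, close to background as for Adra1a. Prkce, a protein kinase C, stood at 0.35 ± 0.14 (adjusted p = 0.696) with a second probe at 0.39. The Gi/o branch of the alpha-2 receptors had a median of -0.01 over 19 genes, 9 higher and 10 lower. In it the G protein beta subunit gene Gnb1 had 0.25 ± 0.07 (SE, adjusted p = 0.668), with another probe at -0.05, and the potassium channel gene Kcnj6 0.30 ± 0.10 (adjusted p = 0.668).

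The Gs and cyclic AMP branch of the beta receptors had a median of 0.03 over 26 genes, 14 higher and 12 lower. The phosphodiesterase genes Pde4d and Pde4b had 0.30 ± 0.11 and -0.20 ± 0.10 (SE, limma adjusted p = 0.685 and 0.724), and the probes of each gene differed in sign. Receptor kinases, arrestins and regulators of G protein signalling had a median of 0.07 over 18 genes, 11 higher and 7 lower. Rgs2, which limits Gq signalling, had -0.17 ± 0.07 (SE, adjusted p = 0.710) and Rgs20 0.18 ± 0.10 (adjusted p = 0.749). The share of these genes without overlap was close to the background in the whole set, and 0 genes of any branch passed the adjusted threshold.

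**Figure D4:**
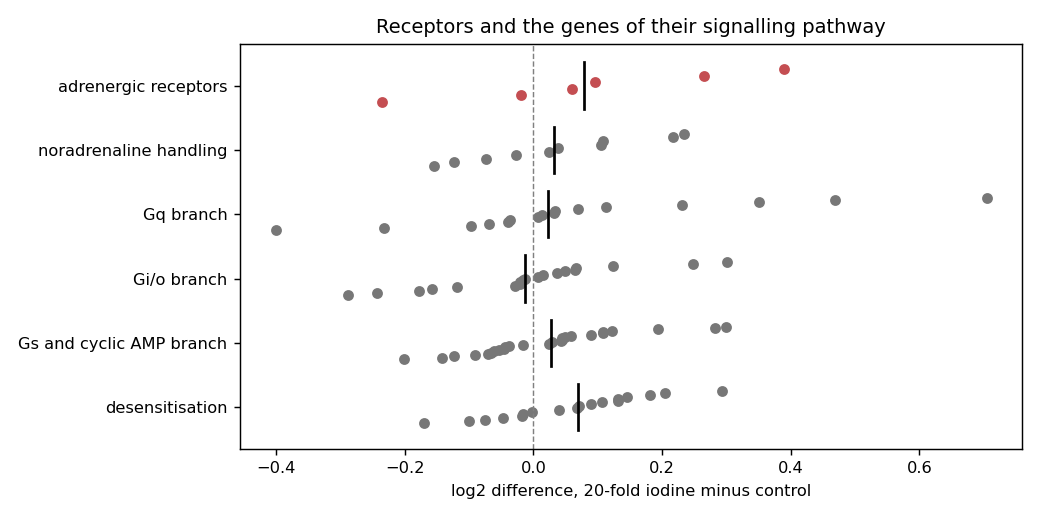
Log2 difference, 20-fold iodine minus control (horizontal axis), for the 6 receptor genes (red, brightest probe) and for the tested genes of 5 pathway lists (grey), 1 point per gene, sorted within a list, with a bar at each median. The medians lie between -0.01 and 0.08, and Adra1d, at 0.39, is the rightmost receptor.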

How the data were processed

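Each array came as 1 scanner file that Agilent Feature Extraction (version 12.1.1.1) had written, per the file headers. Its processed signal, an intensity that the authors deposited, was background-subtracted and detrended within the array but not normalized between arrays. Flags for signal well above background and outlier spots were used as deposited. Of 62976 spots, 3671 were controls. Spots of a probe were averaged without flagged outliers (47 to 70 per array), and 0 spots were saturated. The analysis took log2 of these signals and subtracted the 75th percentile of the same array. Probes were named through RefSeq accessions of GRCm38.p6 (58.3% of 56605). The array header names another build, so no coordinates are given. Probe sequences were not used here. limma 3.58.1 (lmFit, eBayes, two-sided) in R 4.3.3 was fitted over probes, and for pathway lists over genes, and was tested on simulated data. Plots used matplotlib 3.10.9.

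The members and lists were chosen with earlier results of these data known. The rule for named genes took every member probe, 2 genes of each pathway list by smallest unadjusted p, and the 2 closest profiles per member. Alternatives changed background correction (normexp, offset 50, on the deposited median spot and background intensity), scaling, filter, variance model, unit tested and replicates. Replicate numbers are shared by the groups, but the labels tie them to no litter or day, and deviations of same-numbered arrays correlated at -0.02 over 38228 probes. Precision is limited by the number of arrays. Some genes of the lists are not reported here by name.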

Additional observations from a re-analysis of the deposited data

How the results depend on the processing

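Over 15 alternatives, none gave an adjusted p under 0.05 for any of the 6 receptor genes or for the second Adra1d probe (13 alternatives), and Adra1d, Adra2a and Adra2c kept their direction in all of them. Adra1d ranged from 0.30 to 0.46 (adjusted p from 0.228 to 0.707) and its second probe from 0.19 (normexp and quantile normalization) to 0.42, and Adra2c was 0.0062 with no scaling. Of 103 recomputed receptor differences, 6 changed sign. Adra1a was 0.030 with normexp and, with 1 array left out, between -0.23 and 0.19. Adra1b was between -0.14 and 0.67 with 1 array left out. Adrb1 was between -0.0050 and 0.13 with 1 array left out, and -0.030 with no scaling between arrays, an alternative chosen after seeing the data. The cause of these changes was not tested, except that with an array left out a lone array stands for its group, and its spread is taken from the other group. The number of probes past the adjusted threshold, 0 in limma as reported, was 25 with normexp and 53 with an intensity trend and robust variances, and none of these was a receptor probe. The share of probes without overlap, 41.6%, was between 68.9 and 73.1% with 1 array left out, where 2 arrays face 1. Probes higher in iodine made up 55.7% of those without overlap, against 70.0% with normexp, 45.7% when scaled to the median of detected probes and 24.0% with no scaling. With the replicate number as a block, the Adra1d difference was 0.39 (adjusted p = 0.621) and 0 probes passed, so the block changed no call. Pathway genes past the threshold numbered 0 in each direction in all 15 alternatives.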
